A study of Mus musculus with 12 samples.

Results

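To determine whether known noncoding RNAs changed in endothelial cells after deletion of the transcription factors Sp1 and Sp3, the RNA-seq values of 10 named RNAs were compared between knockout and control cells. The RNAs were Gas5, Snhg1 and Snhg12, hosts of small nucleolar RNAs, Dnm3os, H19 and Mir155hg, hosts of microRNAs, the nuclear RNAs Malat1 and Neat1, and the imprinted RNAs Meg3 and Kcnq1ot1. They were named by symbol and each has 1 row among the 28689 genes of the table. Of the 10, 8 passed the filter for the test across genes, and Meg3 and Kcnq1ot1 lay under it.

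The cells were MLECs (mouse lung endothelial cells), isolated from lung with beads against CD31 and then ICAM2 and grown in culture for early passages. The knockout group, dKO, came from VE-CAD-CreERT2+/Sp1 fl/fl/Sp3 fl/fl mice, in which an inducible Cre is driven by the VE-cadherin promoter. The control group, CTR, came from VE-CAD-CreERT2-/Sp1 fl/fl/Sp3 fl/fl littermates, which carry the same floxed alleles without Cre and are labelled WT. Both groups received the same dose of tamoxifen, and the mice used were males of 6 to 8 weeks. Each group had 6 libraries. The study describes its replicates in general as independent biological ones, but how many mice lie behind each library was not given in the sources used here. The p-values measure only the spread between these libraries, part of which may be technical.

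A snoRNA host gene is transcribed as a long RNA whose introns are trimmed to small nucleolar RNAs, guides for the chemical modification of ribosomal RNA, while the spliced remainder is commonly short-lived and removed by nonsense-mediated decay. A microRNA host gene carries the hairpin from which a microRNA is cut. Neat1 is the scaffold of nuclear paraspeckles, Malat1 is an abundant RNA of nuclear speckles, and Meg3, H19 and Kcnq1ot1 are expressed from 1 parental allele. Sp1 and Sp3 are zinc finger factors that bind the GC box, a short G-rich motif common in promoters.

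The promoters of 3 snoRNA host genes are shown because Gas5 and Snhg12 had the lowest fold changes of the annotated long noncoding genes tested, and because Sp1 and Sp3 bind GC boxes. Sequences are from RefSeq (GRCm38.p6), 250 bases before to 50 after a start, and all are on the + strand. Capitals mark each GC box, GGGCGG or its complement CCGCCC, searched on both strands with overlapping matches counted. Gas5 has 2 starts in the table, at chr1:161034351-161034650 and chr1:161034916-161035215. The Snhg1 promoter is chr19:8723237-8723536 and the Snhg12 promoter is chr4:132308428-132308727.
Gas5 upstream start: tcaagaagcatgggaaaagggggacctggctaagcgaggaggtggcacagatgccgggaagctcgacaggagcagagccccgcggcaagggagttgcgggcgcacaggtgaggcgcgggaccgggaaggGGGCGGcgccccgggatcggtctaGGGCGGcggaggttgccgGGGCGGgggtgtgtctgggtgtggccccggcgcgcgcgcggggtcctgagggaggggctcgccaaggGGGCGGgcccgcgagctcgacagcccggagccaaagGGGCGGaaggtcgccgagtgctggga
Gas5 downstream start: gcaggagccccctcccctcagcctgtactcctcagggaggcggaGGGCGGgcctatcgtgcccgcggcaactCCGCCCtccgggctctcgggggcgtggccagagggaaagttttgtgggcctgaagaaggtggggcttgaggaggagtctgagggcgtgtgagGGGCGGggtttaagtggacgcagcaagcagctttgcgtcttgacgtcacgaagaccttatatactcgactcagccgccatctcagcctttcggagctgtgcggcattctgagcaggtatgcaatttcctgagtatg
Snhg1: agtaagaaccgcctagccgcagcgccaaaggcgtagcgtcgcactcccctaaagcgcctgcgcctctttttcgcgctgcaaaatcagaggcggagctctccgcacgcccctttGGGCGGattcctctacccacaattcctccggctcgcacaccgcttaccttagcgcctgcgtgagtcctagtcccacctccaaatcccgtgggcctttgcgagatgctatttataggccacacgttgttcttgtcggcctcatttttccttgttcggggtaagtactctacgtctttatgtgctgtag
Snhg12: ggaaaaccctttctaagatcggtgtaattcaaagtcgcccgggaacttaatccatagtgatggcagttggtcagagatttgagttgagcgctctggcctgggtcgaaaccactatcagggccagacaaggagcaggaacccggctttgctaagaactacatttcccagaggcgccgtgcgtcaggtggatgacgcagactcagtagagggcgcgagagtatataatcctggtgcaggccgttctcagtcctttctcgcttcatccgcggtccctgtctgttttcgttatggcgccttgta

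Of the 10 RNAs, 8 had a promoter in the RefSeq table, and Neat1 and H19 did not match an entry. The Gas5 windows held 5 and 3 GC boxes and the Snhg1 window held 1. No GC box was in the windows of Snhg12, Dnm3os, Malat1, Meg3, Kcnq1ot1 or Mir155hg. Of all 32851 promoters of this length, 35.7% held at least 1 GC box, 10.7% at least 3 and 2.71% at least 5. Snhg12 and Dnm3os fell without this motif in their windows, and Gas5 fell with it. The absence of these letters from a window does not tell whether Sp1 or Sp3 binds there.

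snoRNA host genes commonly start within a run of pyrimidines, a feature they share with ribosomal protein genes. The 30 bases around 4 starts, 15 on either side, are printed with the longest run of C and T that comes within 5 bases of the start in capitals.
Gas5 downstream start: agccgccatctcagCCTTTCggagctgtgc
Snhg1: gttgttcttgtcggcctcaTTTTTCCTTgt
Snhg12: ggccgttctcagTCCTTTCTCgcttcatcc
Dnm3os: gcccagCCCTCCCCCTTTTCCTggtcctaa

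The run was 3 bases at the upstream start of Gas5, which is not printed, 6 bases at its downstream start and 9 bases at Snhg1 and Snhg12. A run at least as long lay at 67.79% of all promoters for 3 bases, at 21.02% for 6 and at 6.89% for 9. The runs at the upstream start of Gas5 and at Snhg1 came near the start but did not span it. Those at the downstream start of Gas5, at Snhg12 and at Dnm3os spanned it. The microRNA host Dnm3os, which is no snoRNA host, had the longest run of the 4, at 16 bases, reached by 1.19% of promoters.

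Mature microRNAs of the hosts that were tested, Dnm3os, H19 and Mir155hg, are shown since they are the known products of these genes, with both arms of miR-199a and 1 arm of each of the others. The other arms, and the microRNAs of Meg3, are not shown. The mature sequences (RefSeq, GRCm38.p6) have the seed, bases 2 to 8, in capitals.
mmu-miR-199a-5p (Dnm3os): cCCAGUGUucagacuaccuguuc
mmu-miR-199a-3p (Dnm3os): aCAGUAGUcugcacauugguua
mmu-miR-214-3p (Dnm3os): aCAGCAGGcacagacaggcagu
mmu-miR-675-5p (H19): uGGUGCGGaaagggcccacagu
mmu-miR-155-5p (Mir155hg): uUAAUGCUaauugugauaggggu

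None of these 5 microRNAs shares a seed with another of them. miR-199a-5p is also made from Mir199a-1, and miR-199a-3p from Mir199a-1 and Mir199b, so the level of Dnm3os is not the level of these microRNAs. Within the hosts, the GENCODE annotation (vM39, GRCm39) places 9 snoRNAs in Gas5, 8 in Snhg1 and 4 in Snhg12. It places 2 microRNAs in Dnm3os, 2 in Meg3, 1 in H19 and 1 in Mir155hg. None of these small RNAs has a row of its own in the table, and their levels were not analysed here.

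**Figure D1:**
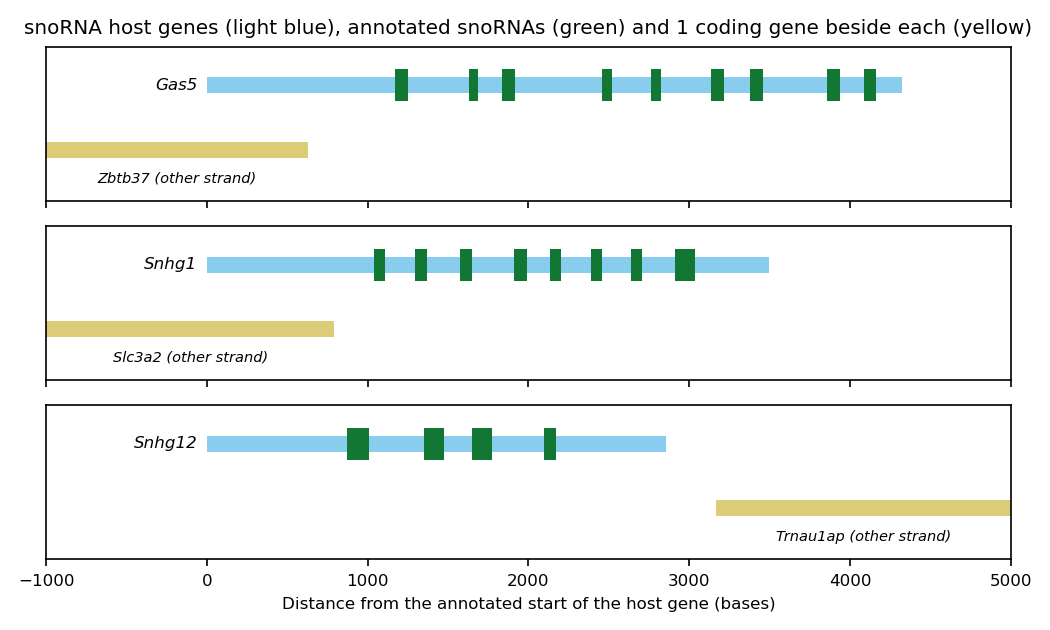
Maps of Gas5, Snhg1 and Snhg12 drawn to scale, with distance from the annotated start of each host in bases on the x axis. Light blue bars are the host genes, green blocks the 9, 8 and 4 annotated snoRNAs, and yellow bars 1 coding gene on the other strand beside each, which overlaps the start of Gas5 and of Snhg1 but not Snhg12.

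The libraries held 15523054 to 17938286 fragments. The values are FPKM, fragments scaled to gene length and library total. Sp1 was 21.2 ± 1.77 FPKM (SD, n = 6) in CTR and 10.6 ± 1.53 in dKO, with all dKO libraries below all CTR libraries, while Sp3 had a log2 fold change of −0.14 with an adjusted p of 0.0902 (limma). Fragments on the deleted exons are not separable in gene-level values. Endothelial markers were present in each group, and 11 of 12 were higher in dKO. Their summed FPKM ran from 173 to 272 in CTR and from 313 to 419 in dKO. All 10 macrophage markers were higher in dKO, with sums of 707 to 1250 in CTR and 2262 to 4964 in dKO. Of 10 fibroblast markers, 8 were tested, 4 were lower and 1 was higher, with sums of 2154 to 2722 in CTR and 844 to 1676 in dKO. Of 6 mesothelial markers 5 were higher, with sums of 28.8 to 38.6 in CTR and 66.3 to 145.9 in dKO. Of tested markers of other cells, 2 of 7 of smooth muscle and pericytes, 1 of 8 of lung epithelium and 3 of 5 of lymphatic endothelium were higher and none lower. Of 8 lymphocyte markers only 1, Ptprc, was tested, and it rose by 0.67 on the log2 scale (adjusted p = 0.00174 from limma). None of 5 erythroid markers passed the filter. No marker of the first 4 lists was at 0 in all libraries. The part of these cell types in the results below was not tested, and in bulk RNA fewer cells of a type and less RNA per cell cannot be told apart.

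Of the 8 RNAs tested, 7 had an adjusted p under 0.05 (limma, adjusted by Benjamini-Hochberg over 12467 genes) and all 7 were lower in dKO. Of all genes tested, 53.1% were called in either direction and 32.6% were called lower. No member entered the test through 1 group alone, since 7 reached 1 FPKM in all 12 libraries and Mir155hg did so in 5 CTR and 3 dKO libraries. A log2 fold change, here of FPKM + 1, under −1.5 with the same adjusted p was met by 2 of the 8, Gas5 and Snhg12, against 0.553% of all genes, or 1.98% with either direction. Across all genes tested the median log2 fold change was −0.10, and 90% of genes lay between −0.76 and 0.86. With median-of-ratios scaling the all-gene median moved to −0.02 and the share of called genes that were higher went from 38.54% to 50.92%, while the same count of 7 members was called.

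**Figure D2:**
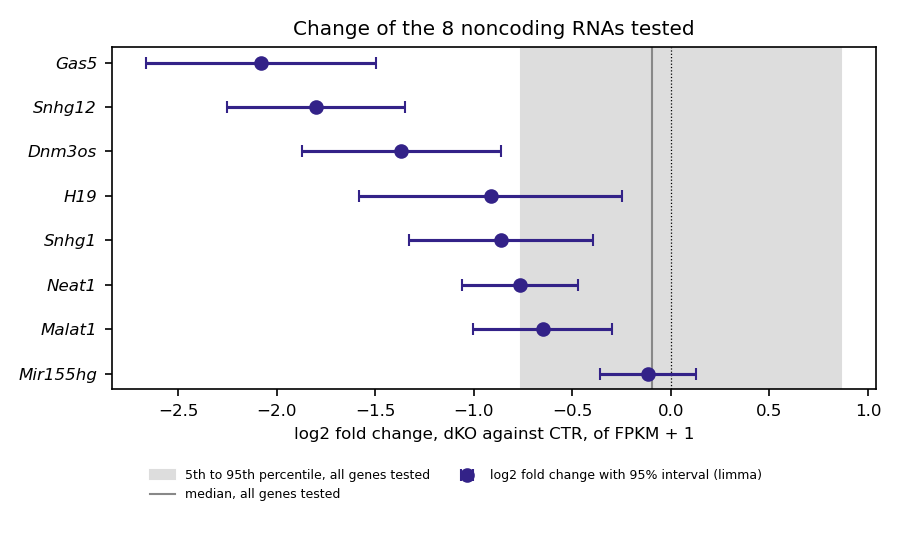
Log2 fold change (dKO against CTR, of FPKM + 1) of the 8 RNAs tested, on the x axis, with 95% intervals from limma as bars. The grey band holds the middle 90% of all genes tested (−0.76 to 0.86) and the grey line their median; Gas5, Snhg12 and Dnm3os have intervals that lie below the band.

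Gas5 (growth arrest specific 5, ENSMUSG00000053332; GRCm39 chr1:160861793-160866118, + strand) fell to 23.8% of its CTR level. In CTR MLECs the lowest library was at 31.5 FPKM, the median at 38.2 and the highest at 56.2. In dKO MLECs the lowest was at 5.03 FPKM, the median at 8.81 and the highest at 17.9. The groups did not overlap, and the dKO libraries split into 3 higher ones, replicates 1 to 3 at 17.9, 11.9 and 12.1 FPKM, and 3 lower ones, replicates 4 to 6 at 5.03, 5.44 and 5.68 FPKM. The means were 40.6 ± 8.68 FPKM (SD, n = 6) in CTR and 9.67 ± 5.17 in dKO, resting on 15613 and 3685 fragments. The log2 fold change was −2.08 (SE 0.27, 95% interval −2.66 to −1.49, adjusted p = 4.98e-05 from limma). The two-sided exact permutation test, over all assignments of the 12 libraries to groups of 6, gave p = 0.002165, the smallest that 6 against 6 allow. Counted from the lowest fold change, Gas5 was number 15 of 12467 genes and number 1 of 282 annotated long noncoding genes tested.

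Snhg12 (ENSMUSG00000086290; GRCm39 chr4:132035905-132038762, + strand), host of the box H/ACA snoRNAs Snora16a, Snora44 and Snora61 and of Snord99, fell by nearly as much. Its CTR libraries ran from 16.7 FPKM through a median of 24.4 to 47.4. Its dKO libraries ran from 5.68 FPKM through a median of 6.29 to 9.83. The groups were apart, and the spread was wide in CTR, where replicate 6 was highest, and narrow in dKO. The mean was 27.5 ± 11.0 FPKM (SD, n = 6) in CTR and 6.87 ± 1.58 in dKO, or 24.9% of the CTR level. Its log2 fold change was −1.80 (SE 0.21, 95% interval −2.25 to −1.35, adjusted p = 2.13e-05 from limma; two-sided exact permutation p = 0.002165). It ranked number 31 of all genes and number 2 of the long noncoding genes.

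Snhg1 (ENSMUSG00000108414; GRCm39 chr19:8700319-8703812, + strand) fell less, and 1 library set its spread. CTR libraries held 6.87 FPKM at the lowest, 7.78 at the median and 11.1 at the highest. dKO libraries held 3.15 FPKM at the lowest, 3.28 at the median and 9.68 at the highest. Replicate 1 of dKO lay within the CTR range, and the other 5 dKO libraries, from 3.15 to 3.59 FPKM, lay below every CTR library. The log2 fold change was −0.86 (SE 0.22, 95% interval −1.33 to −0.40, adjusted p = 0.00486 from limma; two-sided exact permutation p = 0.013). Without dKO replicate 1 it was −1.08 (adjusted p = 1.39e-05 from limma).

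Library 1 of dKO also held the highest dKO value of H19, Gas5 and Snhg12, and for 4 of the 10 RNAs in all. Replicate 3 was the highest dKO library for another 4. The Sp1 value of dKO replicate 1 was 8.42 FPKM, the lowest of the dKO group, whose other libraries ran from 9.11 to 12.1, and its total of 15523054 fragments was the lowest of the 12. Over dKO replicates 2 to 6, the mean of Gas5 was 8.03 ± 3.63 FPKM (SD, n = 5), that of Snhg12 6.28 ± 0.70 and that of Snhg1 3.29 ± 0.19.

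Dnm3os (ENSMUSG00000078190; GRCm39 chr1:162045192-162053119, + strand), the host of Mir199a-2 and Mir214 on the strand opposite to Dnm3, fell to 28.0% of its CTR level. Its CTR values were 3.07 FPKM at the lowest, 6.19 at the median and 9.76 at the highest. Its dKO values were 1.06 FPKM at the lowest, 1.72 at the median and 2.60 at the highest. All dKO libraries lay below all CTR libraries, by a narrow margin between dKO replicate 3 and CTR replicate 6. The means were 6.35 ± 2.51 FPKM (SD, n = 6) and 1.78 ± 0.70, from 5165 and 1469 fragments. Its log2 fold change was −1.37 (SE 0.23, 95% interval −1.87 to −0.86, adjusted p = 0.000359 from limma; two-sided exact permutation p = 0.002165). The pseudocount of 1 FPKM shrinks changes of RNAs near this level, and voom on the recovered fragments gave −1.82. Dnm3os is known from mesenchymal cells, and of the 8 fibroblast markers tested 4 were lower in dKO, 1 was higher and 3 were not called. The lower ones were Col1a1, Col1a2, Col3a1 and Fbln1, and the 3 collagen genes, at 256.5 to 1173 FPKM by group mean, make up most of the lower sums. Dcn rose by 1.33, and Pdgfra, Tcf21 and Thy1 had log2 fold changes of −0.18, 0.38 and −0.07. The part of fibroblasts in the value of Dnm3os was not tested.

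H19 (ENSMUSG00000000031; GRCm39 chr7:142129262-142133957, − strand), a maternally expressed imprinted RNA and the host of Mir675, was lower in dKO by a margin that depended on the libraries included. In CTR the lowest library held 3.75 FPKM, the median was 5.82 and the highest held 18.0. In dKO the lowest library held 1.92 FPKM, the median was 2.69 and the highest held 6.13. The highest value of each group was in its replicate 1, and 5 of the 6 dKO libraries lay below every CTR library. Its log2 fold change was −0.91 (SE 0.31, 95% interval −1.58 to −0.25, adjusted p = 0.0246 from limma; two-sided exact permutation p = 0.0173). Without CTR replicate 1 it was −0.64 (adjusted p = 0.0273), without both libraries numbered 1 it was −0.81 (adjusted p = 0.00143), and without dKO replicate 3 the adjusted p was 0.0531 (all from limma), so the call was lost. Testing the genes without a filter on low values also ended the call (adjusted p = 0.0557 from limma).

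Mir155hg (ENSMUSG00000097418; GRCm39 chr16:84500055-84512133, + strand), the precursor of miR-155, a microRNA of activated immune and endothelial cells, was the member tested that was not called. CTR values ran from 0.959 FPKM through a median of 1.18 to 1.61. dKO values ran from 0.764 FPKM through a median of 1.01 to 1.75. The groups overlapped, with the highest value of the 12 in dKO replicate 5. The log2 fold change of FPKM + 1 was −0.12 (SE 0.11, 95% interval −0.36 to 0.13, adjusted p = 0.406 from limma). The pseudocount of 1 FPKM shrinks changes at this level, so the interval is no bound on the change of the RNA itself. Pseudocounts of 0.1 and 0.01 gave −0.21 and −0.23, and the RNA was not called with either. The values rest on 17 to 44 fragments a library.

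**Figure D3:**
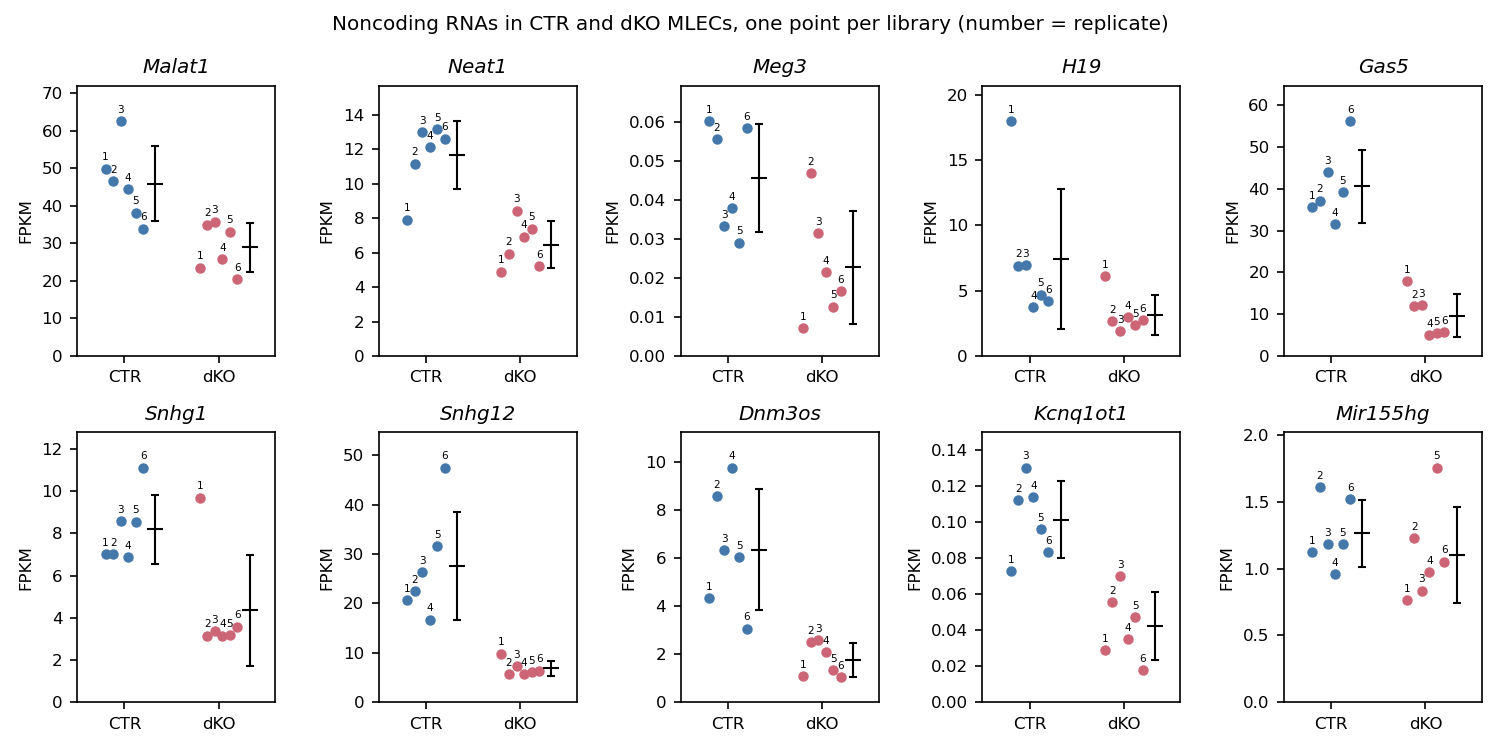
FPKM (y axes, from 0) of the 10 RNAs in each of the 6 CTR (blue) and 6 dKO (red) libraries, each point numbered by replicate, with the mean and SD in black. Gas5, Snhg12, Dnm3os and Kcnq1ot1 are apart between the groups; Snhg1 and H19 each have a replicate 1 far above the rest of its group.

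Malat1 (ENSMUSG00000092341; GRCm39 chr19:5845717-5853602, − strand) and its neighbour Neat1 (ENSMUSG00000092274; GRCm39 chr19:5874736-5897132, − strand) both fell, by less than the hosts Gas5 and Snhg12. For Malat1 the CTR libraries ran from 33.9 FPKM through a median of 45.5 to 62.6, and the dKO libraries from 20.5 FPKM through 29.5 to 35.8. For Neat1 the CTR libraries ran from 7.91 FPKM through a median of 12.4 to 13.2, and the dKO libraries from 4.89 FPKM through 6.43 to 8.43. The groups overlapped for each RNA, in Neat1 only through CTR replicate 1, the lowest CTR library, and dKO replicate 3, the highest dKO library. The log2 fold change of Malat1 was −0.65 (SE 0.16, 95% interval −1.004 to −0.30, adjusted p = 0.0049 from limma; two-sided exact permutation p = 0.00649). That of Neat1 was −0.77 (SE 0.14, 95% interval −1.06 to −0.47, adjusted p = 0.00051 from limma; two-sided exact permutation p = 0.00433). Malat1 stood at number 913 and Neat1 at number 608 of 12467 genes from the lowest fold change. Both RNAs are largely nuclear, and the mature end of Malat1 is formed without a poly(A) tail.

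Kcnq1ot1 (ENSMUSG00000101609; GRCm39 chr7:142731402-142850327, − strand), a paternally expressed RNA that lies within Kcnq1 and silences its neighbours, was below the filter. Its CTR values were 0.0728 FPKM at the lowest, 0.104 at the median and 0.130 at the highest. Its dKO values were 0.0178 FPKM at the lowest, 0.0412 at the median and 0.0702 at the highest. The groups did not overlap, and because the RNA is long these low levels still rest on 107 to 182 fragments in each CTR library and 25 to 104 in each dKO library. The difference of mean log2(FPKM + 1) was −0.079 (two-sided exact permutation p = 0.002165, not adjusted). This understates the change of so low a gene, since the dKO mean was 41.9% of the CTR mean. In fits that included all genes the adjusted p was 0.0053 with limma. Voom gave a log2 fold change of −1.34 (adjusted p = 0.0013), and −1.26 (adjusted p = 0.00249) after median-of-ratios scaling. Groups without overlap and with dKO lower were found for 4 of the 10 RNAs, and for 16.1% of all genes tested, or 27.4% with either direction. The 4 were Gas5, Snhg12, Dnm3os and Kcnq1ot1, and Kcnq1ot1 is not among the genes tested, on which these shares rest.

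Meg3 (ENSMUSG00000021268; GRCm39 chr12:109506877-109538165, + strand), a maternally expressed RNA of the Dlk1-Dio3 region, was nearly absent. It ran from 0.0291 FPKM through a median of 0.0468 to 0.0603 in CTR and from 0.00712 FPKM through 0.0191 to 0.0470 in dKO. The groups overlapped, and the values rest on 85 fragments over the CTR libraries and 43 over the dKO libraries, with 2 in dKO replicate 1. The difference of mean log2(FPKM + 1) was −0.032 (two-sided exact permutation p = 0.0238, not adjusted). In fits that included all genes the adjusted p was 0.104 with limma, 0.0415 with voom and 0.0652 with voom after median-of-ratios scaling, so a call for Meg3 depended on the method.

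In CTR MLECs the mean levels in FPKM, which are per length, ordered the RNAs as Malat1, Gas5, Snhg12, Neat1, Snhg1, H19, Dnm3os, Mir155hg, Kcnq1ot1 and Meg3. Malat1 exceeded Gas5 in 4 of the 6 CTR libraries and H19 exceeded Dnm3os in 3 of 6, so these neighbours were not apart. The ranges were apart between Snhg12 and Neat1, between Dnm3os and Mir155hg, and at each lower step. In dKO MLECs the order of the means was the same, and Malat1 now exceeded Gas5 in 6 of 6 libraries. Gas5 exceeded Snhg12 in 3 of the 6 dKO libraries and Snhg12 exceeded Neat1 in 2 of 6, so these neighbours were not apart either. The dKO ranges were apart between Malat1 and Gas5 and between Mir155hg and Kcnq1ot1.

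The coding genes around each RNA were examined next, because how strand was used in counting is not given and reads of genes that overlap on opposite strands cannot be told apart. At the start of Gas5, Zbtb37, a zinc finger gene of the other strand that shares 627 bases with it, was 2.46 ± 0.26 FPKM (SD, n = 6) in CTR and 1.02 ± 0.31 in dKO, with a log2 fold change of −0.79 (adjusted p = 5.46e-05 from limma) and no overlap of the groups. Cenpl, on the other side of Gas5, had a log2 fold change of −0.23 (adjusted p = 0.126 from limma).

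Slc3a2, the heavy chain of amino acid transporters, shares 790 bases with the start of Snhg1. It was 105.6 ± 22.2 FPKM (SD, n = 6) in CTR and 61.2 ± 9.49 in dKO, a log2 fold change of −0.77 (adjusted p = 0.000452 from limma), with no overlap of the groups. It held 38141 fragments in CTR and 22129 in dKO, against 2487 and 1298 for Snhg1. The highest dKO values of Slc3a2 were 73.7 FPKM in replicate 1 and 73.2 in replicate 3. Snhg1 was high in the former alone. Stx5a on the other side had a log2 fold change of 0.17 (adjusted p = 0.0874 from limma).

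Snhg12 overlaps no coding gene, and its neighbour Trnau1ap, 311 bases away and needed for selenoprotein synthesis, fell by 0.46 on the log2 scale (adjusted p = 0.000107 from limma), with no overlap of the groups. Rab42 on the other side had a log2 fold change of −0.07 (adjusted p = 0.582 from limma). Dnm3, a dynamin gene that spans the whole of Dnm3os on the other strand, went the other way. Its values were 0.0889 to 0.173 FPKM in CTR and 0.328 to 0.421 in dKO, all dKO libraries being higher (two-sided exact permutation p = 0.002165), and it lay under the filter.

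Kcnq1, a potassium channel gene that spans the whole of Kcnq1ot1 on the other strand, was 1.18 ± 0.26 FPKM (SD, n = 6) in CTR and 1.06 ± 0.13 in dKO (adjusted p = 0.479 from limma). Cdkn1c, a cell cycle inhibitor on its other side, had a log2 fold change of 0.49 (95% interval −0.03 to 1.02, adjusted p = 0.103 from limma). Mrpl39, which overlaps Mir155hg, had a log2 fold change of −0.01 (adjusted p = 0.870 from limma), and Jam2, a junctional adhesion gene downstream of it, rose by 1.18 (adjusted p = 0.00927 from limma). Frmd8, 2597 bases from Neat1, rose by 0.59 (adjusted p = 0.000264 from limma).

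Near Meg3 and H19 the imprinted partners were mostly silent. Dlk1 was at 0 in all dKO libraries and at most 0.0107 FPKM in CTR, and Igf2 was at most 0.109 FPKM in any library. Dio3, the thyroid hormone deiodinase of the Meg3 region, was 3.72 ± 1.71 FPKM (SD, n = 6) in CTR and 15.1 ± 5.78 in dKO, a log2 fold change of 1.75 (adjusted p = 0.000291 from limma). Mrpl23 beside H19 fell by 0.51 on the log2 scale (adjusted p = 0.000323 from limma). Dio3 and Meg3 lie 707336 bases apart.

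Other noncoding genes of the same classes were counted to place these RNAs. Of 15 snoRNA host genes tested, 9 were lower, 2 higher and 4 not called, at a median of −0.51 on the log2 scale. Without Gas5, Snhg1 and Snhg12 the count was 6 lower, 2 higher and 4 not called, with a median of −0.43, against a median of −0.10 and shares of 32.6% lower and 20.4% higher for all genes. Snhg5, a further host, fell from 19.2 ± 4.32 FPKM (SD, n = 6) to 6.69 ± 1.62, a log2 fold change of −1.38 (adjusted p = 2.45e-05 from limma), with no overlap of the groups. Epb41l4aos, the most abundant host in the list, fell by 0.49 (adjusted p = 0.0139 from limma).

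Of 5 microRNA hosts tested, 3 were lower and none higher, with a median of −0.64, against 32.6% of all genes lower. These 3 were Dnm3os, H19 and Mir100hg, of which Mir100hg fell by 0.64 (adjusted p = 0.00612 from limma). Without Dnm3os, H19 and Mir155hg only 2 hosts remained, 1 lower and 1 not called, with a median of −0.37. Mir22hg had a log2 fold change of −0.10 (adjusted p = 0.149 from limma). Of 10 other long noncoding RNAs, 5 were lower, Malat1 and Neat1 included, and 2 were higher, with a median of −0.19. Without Malat1 and Neat1, 3 were lower and 2 higher, with a median of −0.08. Under median-of-ratios scaling 3 of the 10 were lower and 3 higher. Morrbid, an RNA known to control the survival of myeloid cells, rose by 0.87 (adjusted p = 8.00e-05 from limma), in libraries in which macrophage markers were also higher. Norad, which binds PUMILIO proteins and whose level of 46.0 ± 4.14 FPKM (SD, n = 6) in CTR was close to that of Malat1, had a log2 fold change of −0.04 (adjusted p = 0.727 from limma). Over all 282 annotated long noncoding genes tested, 31.9% were lower and 14.5% higher, so long noncoding genes as a class were lower about as often as all genes.

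Protein partners of these RNAs were also counted. Of 17 paraspeckle proteins, which assemble on Neat1, 15 were lower and none higher, at a median of −0.63 on the log2 scale, against 32.6% of all genes called lower. Sfpq fell by 0.98 (adjusted p = 2.35e-06 from limma) and Hnrnph3 by 0.96 (adjusted p = 8.18e-07 from limma), and for 14 of the 17 the groups did not overlap, against 16.1% of all genes with dKO lower. Nono, which pairs with Sfpq, fell by 0.43 (adjusted p = 0.000132 from limma).

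Of 12 core proteins of snoRNPs, the particles that snoRNAs form, 8 were lower and none higher, with a median of −0.62, against 32.6% of all genes lower. Groups without overlap and with dKO lower were found for only 1 of the 12, against 16.1% of all genes tested. Under median-of-ratios scaling 6 were lower and 1 was higher. Dkc1, the pseudouridine synthase of H/ACA particles, fell by 0.97 (adjusted p = 0.000771 from limma), Gar1 by 0.84 (adjusted p = 0.00038) and Rrp9 by 0.83 (adjusted p = 0.0123). Nhp2 had a log2 fold change of −0.08 (adjusted p = 0.741 from limma). Of 16 nonsense-mediated decay factors, 6 were lower and none higher, with a median of −0.23, a share of 37.5% lower against 32.6% of all genes. Smg6, the endonuclease of the pathway, fell by 0.50 (adjusted p = 0.00222 from limma).

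Of 20 imprinted genes, near Meg3, H19 or Kcnq1ot1 or otherwise well known, 12 were tested. Of these, 5 were higher and 1 lower, at a median of 0.24 on the log2 scale, against 20.4% of all genes higher and 32.6% lower. Peg3, a zinc finger gene of another imprinted region, rose by 1.09 (adjusted p = 0.000845 from limma), and Cd81, near Kcnq1ot1, rose by 0.49 (adjusted p = 0.000351 from limma). Grb10, an adaptor of insulin signalling, fell by 0.44 (adjusted p = 0.00986 from limma). In a list of the imprinted gene network linked to H19, 7 of 14 genes were higher and 3 lower, beside 20.4% and 32.6% of all genes, the 3 lower ones being H19 itself, Slc38a4, an amino acid transporter that fell by 1.04 (adjusted p = 0.00245 from limma), and Grb10. The proteoglycan gene Dcn, which is also a fibroblast marker, rose by 1.33 (adjusted p = 0.00033 from limma).

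**Figure D4:**
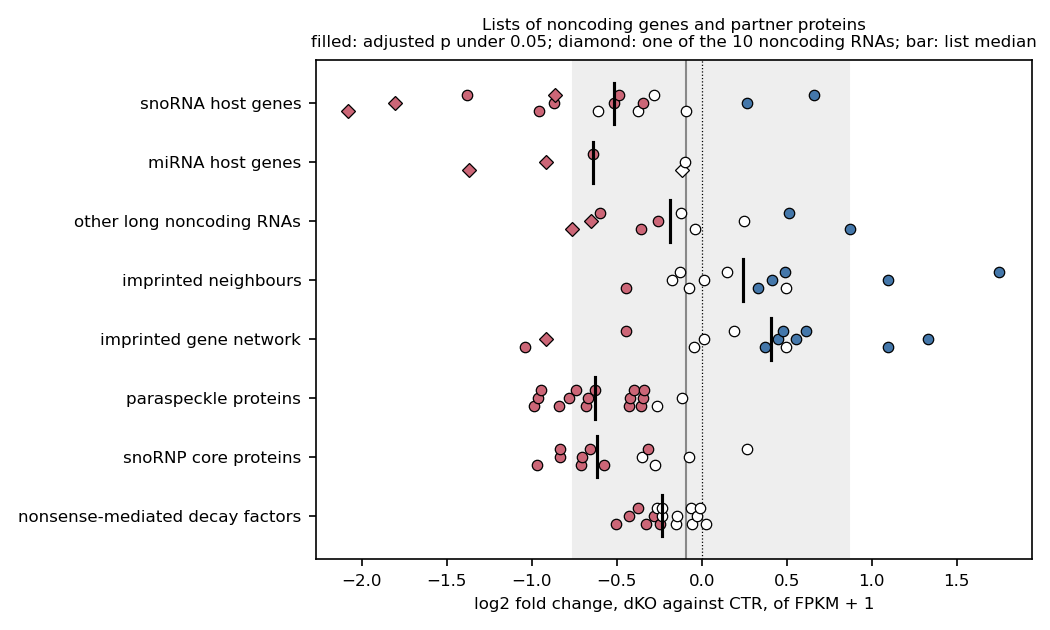
Log2 fold change (dKO against CTR, of FPKM + 1) of each tested gene in 8 lists, with list medians as bars and the middle 90% of all genes as the grey band. Filled points have an adjusted p under 0.05 (limma) and diamonds are the RNAs described; Gas5 and Snhg12 lie lowest, and the paraspeckle list holds 15 lower and 0 higher genes.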

How the data were processed

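RNA was extracted from cultured MLECs of CTR and dKO mice and sequenced as paired-end reads. The deposited table holds FPKM values that the authors made from their reads, 1 column per library. The study's methods describe mapping to mm39 with STAR, while the processing notes of the submitters name Bowtie2 2.2.3, HISAT2 2.1.0 and TopHat2, and the labels describe retinas and another library kit. The counting program, annotation and use of strand are not given in the sources used here. Columns were assigned to groups by the sample labels, and the knockout columns are named after tamoxifen, which both groups received.

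Ensembl identifiers were matched to GENCODE vM39 (27706 of 28689 genes, 96.6%). Whole fragments and library totals (15523054 to 17938286) were recovered from the steps of the FPKM values, with 100% of genes whole at a tolerance of 1e-09. The recovered counts give the depth behind each value. Libraries of a group differed beyond sampling noise in all 30 pairs (chi-square per degree of freedom at least 12.25). The test across genes took the 12467 that reached 1 FPKM in 6 or more of the 12 libraries, on the scale log2(FPKM + 1), with limma 3.58.1 (lmFit and eBayes with a trend) in R 4.3.3, with no covariate and Benjamini-Hochberg adjustment over these genes. The pseudocount understates fold changes of low genes. Permutation tests of single genes were two-sided and exact. DESeq2, which the authors used, was not used here, since the table holds FPKM. The scripts were tested on simulated data. Figures used Matplotlib 3.10.9 with Python 3.11.15, NumPy 2.4.6 and pandas 2.3.3.

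The RNAs and gene lists were chosen with earlier results of these data known. Genes named in the text are the 10 RNAs, the 3 tested genes of each list with the largest absolute fold change and the 2 with the highest mean FPKM, coding genes that overlap an RNA or lie nearest on each side, annotated small RNAs within an RNA, Sp1 and Sp3, and markers of cell types. Alternatives were other pseudocounts (0.1 and 0.01), filters (none, or at least 5 FPKM), scalings (TPM, upper quartile, median of ratios), a replicate block, robust eBayes, voom on recovered fragments, and leaving out each library. Voom on all genes, with and without median-of-ratios scaling, and leaving out both libraries numbered 1 were added after the data were seen. Some genes that this rule takes are not reported here. Mir503hg, whose symbol stands on more than 1 identifier, was not used.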

Additional observations from a re-analysis of the deposited data

Results flagged for a closer look

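Values were flagged where 1 library of a group of 6 stood apart from the others by Dixon's criterion at 95%. Of 125 groups of values checked, 16 were flagged, and about 6.25 are flagged by chance at 1 in 20. The flags fell in dKO replicate 1 more often than in any other library.

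Among the noncoding RNAs, H19 was 18.0 FPKM in CTR replicate 1, against 3.75 to 6.95 in the other CTR libraries, and 6.13 FPKM in dKO replicate 1, against 1.92 to 2.97. Snhg1 was 9.68 FPKM in dKO replicate 1, against 3.15 to 3.59. The host Snhg5 was 9.83 FPKM in dKO replicate 1, against 5.12 to 6.48.

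Of the snoRNP core proteins, dKO replicate 1 held 12.9 FPKM of Dkc1 (others 5.38 to 6.93), 11.0 FPKM of Gar1 (others 6.64 to 8.23), 13.1 FPKM of Rrp9 (others 4.51 to 7.49) and 34.6 FPKM of Snu13 (others 25.5 to 28.6). Of the paraspeckle proteins, Sfpq was 35.6 FPKM in dKO replicate 4 (others 26.6 to 28.2) and Hnrnph3 was 4.64 FPKM in dKO replicate 2 (others 3.86 to 4.03).

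Among neighbouring genes, Mettl13 was 3.06 FPKM in dKO replicate 1 (others 1.41 to 1.71), Trnau1ap was 11.8 FPKM in CTR replicate 6 (others 9.70 to 10.2) and Cdkn1c was 5.62 FPKM in CTR replicate 4 (others 1.10 to 2.79). At very low levels, Ncam2 was 0.0739 FPKM in dKO replicate 3 (others 0.0184 to 0.0371). Chrm1 was 0.0177 FPKM in CTR replicate 1 and 0.00993 FPKM in dKO replicate 1 and listed at 0 in the other libraries of each group. Its values rest on 2 fragments in CTR and 1 in dKO. With the other libraries at 0 any value above 0 is flagged, and the flags of Chrm1 are counted among the 16.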

How the results depend on the processing

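Of 245 alternative values of the 10 RNAs, all 245 lay below 0 and 241 kept their side of 0.05. H19 lost its call without a filter (−0.91, adjusted p = 0.0557) and without dKO replicate 3 (−0.83, adjusted p = 0.0531, limma); the cause was not tested. Meg3 had no call across genes, and its unadjusted permutation p stood beside an adjusted p over 0.05 without a filter (−0.032, 0.104, limma) and with voom of all genes after median-of-ratios scaling (−1.02, 0.0652), which are other tests. The number of RNAs called was 7, from 5 (at least 5 FPKM, fewer genes tested) to 9 (voom of all genes), and 6 to 7 with a library left out. Genes with an absolute log2 fold change over 1.5 numbered 247, and 486 and 525 with pseudocounts of 0.1 and 0.01, 387 after rescaling to TPM, 516 with voom, 1704 with voom of all genes and 1679 with median-of-ratios scaling as well. Genes with an adjusted p under 0.05 (limma) numbered 6614, and 4222 of 7891 tested with the filter at 5 FPKM. With median-of-ratios scaling, 3 other long noncoding RNAs were lower in place of 5, and 1 snoRNP protein was higher in place of 0. Leaving out 1 library gave 5858 to 6841 and 231 to 265 genes for these 2 counts, and log2 fold changes of −1.08 to −0.64 for H19. Same-numbered libraries had correlations of their deviations of 0.44, 0.16, −0.04, 0.57, 0.01 and −0.11, over 0.1 in 3 of 6 pairs. Of 12 libraries, 4 correlated best with their own number. These values do not settle whether the numbers mark pairs, and the main test used no pairing. The replicate block gave 6955 genes and called 7 RNAs, as without it, with an adjusted p of 0.00211 for H19 (limma). Depth limits Meg3, with 2 to 19 fragments a library, and Mir155hg.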
